A study of Mus musculus with 6 samples.

Results

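Galectins, osteopontin, Gpnmb and progranulin were examined as a set of 7 genes, Lgals1, Lgals3, Lgals8, Lgals9, Spp1, Gpnmb and Grn, in macrophages of injured mouse muscle. The set was defined by gene symbol. Each gene was read from the probe set that carries its symbol alone, and 6 of the 7 had exactly 1 such probe set among the 19938 genes tested. Spp1, the osteopontin gene, had none in the probe annotation used and is not analysed here. All mice carried the strain name B6.129P2-Lyzstm1(cre)Ifo/J, in which Cre stands at the myeloid lysozyme locus, and the labels name no further allele. Cardiotoxin, a snake toxin that destroys muscle fibres, was injected into the tibialis anterior muscle, and cells were taken after 2 days. Leukocytes carrying CD45 were enriched on magnetic beads and sorted into Ly6C- F4/80high and Ly6C+ F4/80low macrophages. Each of 3 mice gave both subsets, so that there were 6 arrays, 3 per subset, and an uninjured muscle was not analysed here.

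Galectins are lectins that bind galactose-containing glycans. They leave the cell without a signal peptide, crosslink glycoproteins at the surface and, in the cytosol, gather on endosomes and lysosomes whose membrane has broken. Gpnmb is a transmembrane glycoprotein of macrophage and melanocyte lysosomes that is also shed from the surface, and Grn encodes progranulin, a secreted protein that is carried to lysosomes and cleaved there into granulins. Some of these genes, Gpnmb among them, are commonly listed with Spp1 among those of lipid-laden or phagocytic macrophages, and galectin-3 is long known as a macrophage protein.

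Upstream sequence is shown for the pair of lysosomal glycoprotein genes with the largest differences, Gpnmb and Grn, and for Lgals8, the measured member that was lower. These are the 250 bases before the annotated start in RefSeq's GRCm38.p6, each on the strand of its gene, at chr6:49036268-49036517 (plus strand), chr11:102430257-102430506 (plus strand) and chr13:12461739-12461988 (minus strand). Capitals mark a motif match.
Gpnmb: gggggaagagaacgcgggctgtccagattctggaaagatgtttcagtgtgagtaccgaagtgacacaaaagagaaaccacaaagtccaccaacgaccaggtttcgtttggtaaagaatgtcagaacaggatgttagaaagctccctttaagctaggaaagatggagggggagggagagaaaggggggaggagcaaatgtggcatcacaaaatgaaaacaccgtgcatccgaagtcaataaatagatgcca
Grn: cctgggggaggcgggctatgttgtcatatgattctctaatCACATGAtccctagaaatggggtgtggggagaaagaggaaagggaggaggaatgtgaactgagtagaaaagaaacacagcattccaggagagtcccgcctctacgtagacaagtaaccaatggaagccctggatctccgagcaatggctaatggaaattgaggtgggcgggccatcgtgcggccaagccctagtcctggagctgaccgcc
Lgals8: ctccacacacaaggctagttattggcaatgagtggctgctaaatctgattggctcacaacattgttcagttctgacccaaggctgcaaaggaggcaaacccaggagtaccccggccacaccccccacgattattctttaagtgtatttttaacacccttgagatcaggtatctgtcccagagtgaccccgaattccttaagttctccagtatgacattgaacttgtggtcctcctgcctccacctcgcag
A promoter entry, reaching from 250 bases before to 50 after the start, was found for 5 of the 6 measured members. Lgals1 had none. These 5 were searched on both strands for CACGTG (the core bound by the lysosomal regulators of the MiT/TFE family), TCATGTG (the M-box of Mitf), TGACTCA (AP-1), GAAA repeated after any 2 bases (the core of interferon response elements) and GAGGAAGT (PU.1). The motifs were chosen after the letters had been seen. The capitals in Grn are the reverse complement of TCATGTG, at positions -210 to -204 from the start, and 3.77% of the 32851 promoter entries of the mouse hold this motif. Gpnmb held TGACTCA at bases 9 to 15 after the start, where 5.20% of entries hold it, and Lgals9 held the interferon core in reverse complement at positions -55 to -46 and again at 16 to 25, where 3.44% hold it. These matches are shown with their neighbouring bases, at chr6:49036516-49036545 (plus strand) and chr11:78984960-78984989 (minus strand).
Gpnmb: caggggcaagTGACTCAtgagcacgagttg
Lgals9: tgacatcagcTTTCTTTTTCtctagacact
CACGTG and GAGGAAGT were found in none of the 5, against 7.15% and 3.20% of all entries. The matches are descriptions of the letters and of nothing else.

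The sort was followed by the genes of its antigens, which check the labels. The shared probe sets of Ly6c1 and Ly6c2, which cannot tell these genes apart, averaged log2 levels (RMA, the authors' normalization) of 8.02 and 8.08 in Ly6C- F4/80high cells, against 11.4 and 11.3 in Ly6C+ F4/80low cells. Adgre1, the F4/80 gene, averaged 11.59 ± 0.03 in Ly6C- F4/80high cells and 10.85 ± 0.03 in Ly6C+ F4/80low cells (SD, n = 3 each). The 9 macrophage markers, among them Csf1r, Cd68 and Mertk, had means above background in at least 1 subset. Of these 9, 4 were called higher in Ly6C- F4/80high cells and 3, Cd14, Fcgr1 and Itgam, lower. Background is a log2 level of 5.44, under which 95% of the receptor genes of smell and pheromone sensing lay. Neutrophil, T cell, NK cell and mast cell markers were mostly below that level in both subsets, at 6 of 10, 3 of 5, 4 of 4 and 4 of 4, Ly6g, Cd3d and Ncr1 among them, as were 3 of 4 eosinophil markers. Of 4 B cell markers 2 were below it, Cd79a and Ms4a1, and 1, Cd79b, was called higher in Ly6C- F4/80high cells. Skeletal muscle markers averaged 5.79 to 5.88 over the Ly6C- F4/80high arrays and 5.93 to 5.95 over the Ly6C+ F4/80low arrays, with 2 of 8 below background in both subsets and 2 lower. Fibroblast markers averaged 5.33 to 5.39 over the Ly6C- F4/80high arrays and 5.68 to 6.07 over the Ly6C+ F4/80low arrays, and 5 of 6 were called lower. Their differences were uneven, from -1.14 (SE 0.26) for Dcn to -0.20 (SE 0.13) for Lum. Endothelial markers averaged 5.97 to 6.05 over the Ly6C- F4/80high arrays and 6.45 to 6.57 over the Ly6C+ F4/80low arrays, with 3 of 5 lower and 1 higher. Here too single genes stood apart, from -1.51 (SE 0.10) for Cdh5 to 0.32 (SE 0.10) for Vwf. Dendritic cell markers averaged 5.26 to 5.36 over the Ly6C- F4/80high arrays and 5.76 to 5.79 over the Ly6C+ F4/80low arrays, with 3 of 6 lower. Their differences ran from -1.19 (SE 0.08) for Cd209a to -0.12 (SE 0.09) for Clec9a. The part of such cells in the differences below was not tested. In sorted bulk samples, more cells of a kind and more RNA per cell cannot be told apart.

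Of the 6 measured members, 4 were higher and 1 was lower in Ly6C- F4/80high cells, and Lgals9 did not pass the test. Gpnmb had the largest difference, followed by Grn, Lgals1 and Lgals3, and Lgals8 went the other way. A gene was called at a limma adjusted p under 0.05, with Benjamini-Hochberg adjustment over all 19938 genes, and 33.8% of all genes were called, 19.5% higher and 14.3% lower. The median difference of the 6 was 0.27 on the log2 scale, against -0.06 for all genes. None of the 6 passed a 2-fold difference with a call, as 2.92% of all genes did. For 5 of the 6, all arrays of one subset lay beyond all of the other, 4 of them higher and 1 lower, as was true of 48.1% of all genes, 24.4% higher and 23.6% lower. Every difference is given in log2 units as the Ly6C- F4/80high mean less the Ly6C+ F4/80low mean, with limma's standard error, and levels of different probe sets are not set against each other.

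**Figure D1:**
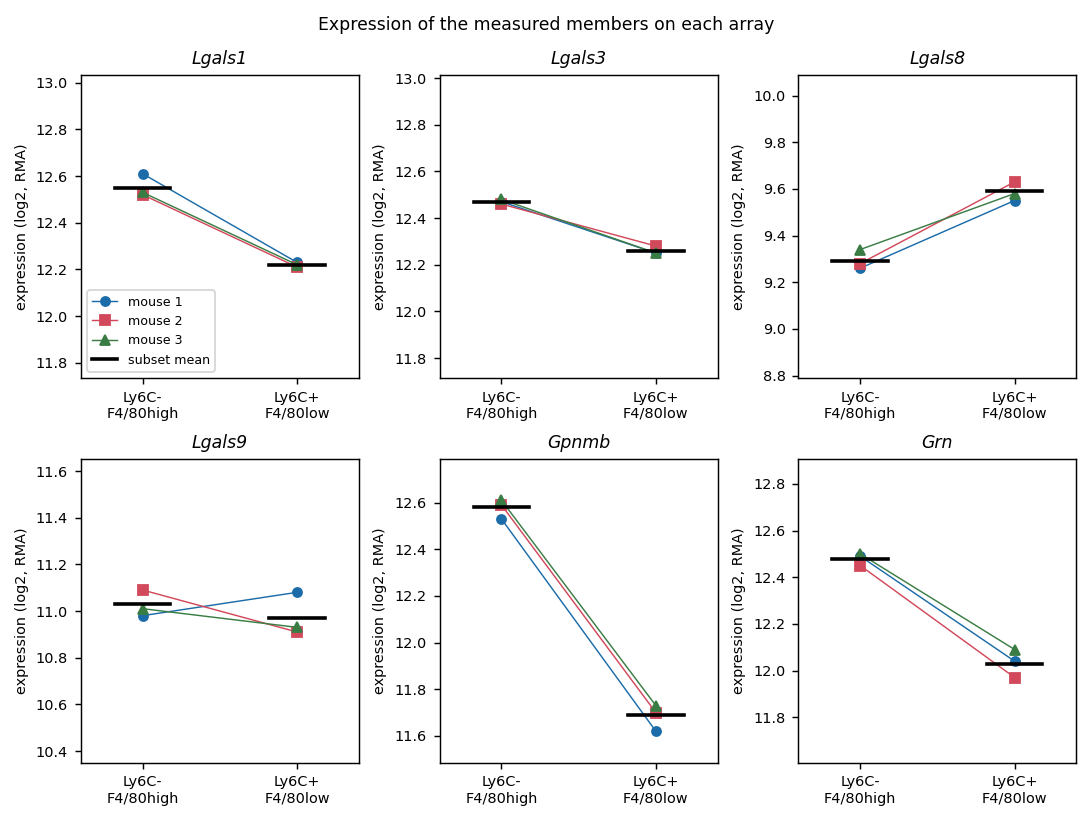
Log2 RMA expression (vertical axis, each panel spanning the same 1.3 log2 units) of the 6 measured members in Ly6C- F4/80high and Ly6C+ F4/80low cells. Symbols and lines join the arrays of one mouse and black bars are subset means (n = 3 each). Gpnmb falls farthest apart, with Ly6C- F4/80high arrays at 12.53 to 12.61 and Ly6C+ F4/80low arrays at 11.62 to 11.73, while the Lgals9 arrays overlap.

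Gpnmb, whose product is thought to take part in lysosome function and phagocytosis, stood at 12.53, 12.59 and 12.61 in the Ly6C- F4/80high cells of mice 1, 2 and 3, against 11.62, 11.70 and 11.73 in their Ly6C+ F4/80low cells. The nearest arrays of the subsets were 0.79 apart, and the difference was almost the same in each mouse, at 0.90, 0.89 and 0.88. Gpnmb was 1.85-fold higher, by 0.89 (SE 0.07, 95% interval 0.72 to 1.05, limma adjusted p = 1.56e-05). Of all genes 3.99% had a larger difference in either direction, and 2.66% lay further on the positive side.

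Grn, the progranulin gene, stood at 12.49, 12.45 and 12.50 in Ly6C- F4/80high cells of mice 1, 2 and 3, against 12.04, 11.97 and 12.09 in Ly6C+ F4/80low cells. Every Ly6C- F4/80high array lay above every Ly6C+ F4/80low array, by at least 0.36, and the mice differed by 0.45, 0.48 and 0.41. Grn was 1.36-fold higher, by 0.45 (SE 0.07, 95% interval 0.28 to 0.61, limma adjusted p = 0.00115), and 16.3% of genes had a larger difference. The intervals of Gpnmb and Grn did not meet, although the difference between these genes was not tested.

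Lgals1 encodes galectin-1, a prototype galectin with one carbohydrate-binding domain that acts as a dimer and is known for damping T cell responses. It stood at 12.61, 12.52 and 12.53 in Ly6C- F4/80high cells, against 12.23, 12.21 and 12.22 in Ly6C+ F4/80low cells. The array of mouse 1 was the highest of the Ly6C- F4/80high arrays, and the subsets did not overlap. Lgals1 was 1.26-fold higher, by 0.33 (SE 0.07, 95% interval 0.17 to 0.49, limma adjusted p = 0.00523). Galectin-1 is also made by fibroblasts and muscle cells. Of their markers, 5 of 6 for fibroblasts and 2 of 8 for skeletal muscle were called lower in Ly6C- F4/80high cells and none higher, and the part of such cells in the Lgals1 difference was not tested.

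Lgals3 encodes galectin-3, the chimera galectin whose long tail lets it assemble into larger complexes and which is a common macrophage marker. It stood at 12.47, 12.46 and 12.48 in Ly6C- F4/80high cells, against 12.25, 12.28 and 12.25 in Ly6C+ F4/80low cells. The arrays of a subset lay within a few hundredths of each other and the subsets did not overlap, yet the difference was small, 1.16-fold or 0.21 (SE 0.07, 95% interval 0.06 to 0.37, limma adjusted p = 0.0403). With the mouse as a fixed block the limma adjusted p of Lgals3 was 0.0741, which ends the call, and with the mouse as a random block it was 0.0416, which keeps it. The call was also lost without any single one of the 6 arrays (limma adjusted p = 0.0642 to 0.102, difference 0.21 to 0.22) and after quantile normalization (0.16, limma adjusted p = 0.102). The standard error computed from the 6 Lgals3 values alone was 0.012, and limma's is larger because it is drawn towards the spread shared by all genes. In all, 44.6% of genes had a larger difference than Lgals3.

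Lgals8 and Lgals9 encode tandem-repeat galectins, which hold a pair of different carbohydrate-binding domains, and galectin-8 is known for marking damaged vesicles for autophagy. Lgals8 stood at 9.26, 9.28 and 9.34 in Ly6C- F4/80high cells, against 9.55, 9.63 and 9.58 in Ly6C+ F4/80low cells. It was the only measured member whose Ly6C- F4/80high arrays all lay below its Ly6C+ F4/80low arrays, and it was 1.22-fold lower, by -0.29 (SE 0.07, 95% interval -0.45 to -0.13, limma adjusted p = 0.0111). The call of Lgals8 was lost without any one mouse (difference -0.32 to -0.26, limma adjusted p at most 0.0671). Called lower along with Lgals8 were 5 of 6 fibroblast, 3 of 5 endothelial and 3 of 6 dendritic cell markers, at the levels given above. The endothelial marker Vwf was called higher, by 0.32 (SE 0.10). The part of such cells was not tested.

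Lgals9, which encodes galectin-9, a ligand of the checkpoint receptor Tim-3, stood at 10.98, 11.09 and 11.01 in Ly6C- F4/80high cells, against 11.08, 10.91 and 10.93 in Ly6C+ F4/80low cells. The arrays overlapped, and the mice disagreed, with -0.10 in mouse 1, 0.18 in mouse 2 and 0.09 in mouse 3. Its difference was 0.06 (SE 0.08, limma adjusted p = 0.603), and the 95% interval of -0.12 to 0.23 still allows a small change either way. Galectin-9 is induced by interferon in several cell types. The motif match shown above describes letters only, and an effect of interferon was not tested. An exact two-sided permutation test over the 6 arrays gave p = 0.4 for Lgals9 and 0.1 for each of the 5 other measured members, and 0.1 is the smallest p that 3 against 3 allows.

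**Figure D2:**
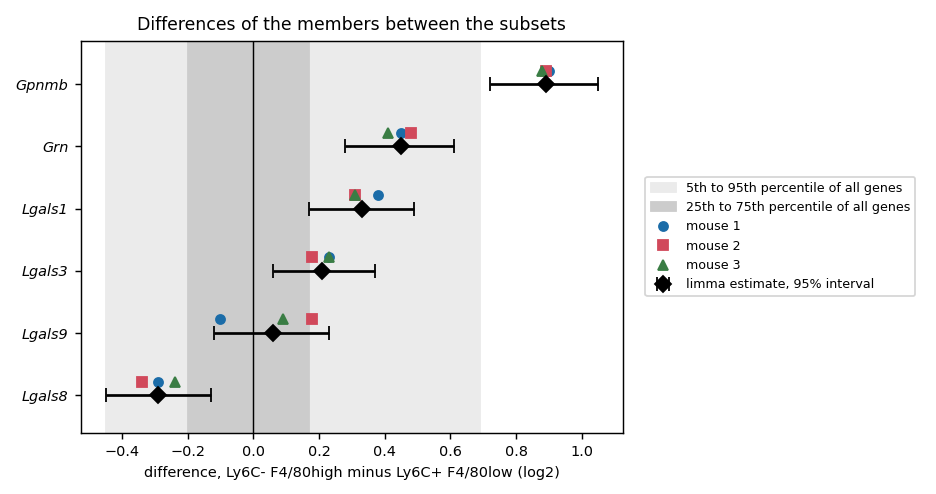
Difference of each measured member between Ly6C- F4/80high and Ly6C+ F4/80low cells (horizontal axis, log2). Diamonds and bars are the limma estimate and its 95% interval, coloured symbols the difference within each mouse, and grey bands the spread of all 19938 genes, from -0.45 to 0.69 between the 5th and 95th percentiles. Gpnmb lies beyond the 95th percentile, and Lgals8 alone has its whole interval below 0.

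Among the remaining galectin genes, none of the 6 measured was called, against 33.8% of all genes (limma). Of the 6, 2 had an unadjusted limma p under 0.05. Lgals2, Lgals4 and Lgals12 had both subset means under the background, and Lgals7, Grifin and Lgalsl lay above it on all 6 arrays. Lgals7, a galectin of stratified epithelium, averaged 5.93 ± 0.14 in Ly6C- F4/80high cells and 6.20 ± 0.11 in Ly6C+ F4/80low cells (SD, n = 3 each), a difference of -0.27 (limma adjusted p = 0.0523, and 0.0422 with the mouse as a block). Grifin, the lens relative of the galectins, differed by -0.14 (SE 0.08), and Lgalsl, a galectin-like gene, by -0.02 (SE 0.11). The probe set named Lgals4 may also read its near copy Lgals6, for which no probe set of its own was analysed here.

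Genes around the galectins were chosen with earlier results of these data known and were described by counts. Among 16 glycoproteins reported to bind galectins, 3 were higher and 5 lower, 8 had no call, and the median difference was -0.08. Those called were thus 8 of 16, against 33.8% of all genes, and the median of all genes was close, at -0.06. Mertk, a receptor for dying cells that galectin-3 is reported to engage, averaged 9.71 ± 0.06 in Ly6C- F4/80high cells and 8.13 ± 0.12 in Ly6C+ F4/80low cells (SD, n = 3 each), higher by 1.57 (SE 0.08). Lamp1, a heavily glycosylated protein of the lysosomal membrane, was higher by 0.51 (SE 0.07), and Lgals3bp, the secreted galectin-3-binding protein, by 0.46 (SE 0.10), a call lost without mouse 2. Cd44, the hyaluronan receptor that also binds osteopontin and several galectins, differed by -0.39 (SE 0.07), and Ptprc, the CD45 gene, by -0.64 (SE 0.07). Havcr2, the Tim-3 gene, did not pass the test at -0.35 (SE 0.14, limma adjusted p = 0.0683) and is named after its values were seen.

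The enzymes that build or cap galectin-binding glycans numbered 15, of which 8 had higher expression, 1 lower and 6 no call. The share called was 60.0%, against 33.8% of all genes. The median difference of the 15 was 0.30, against -0.06 for all genes. St6gal1, which caps galactose with sialic acid in a linkage known to hinder galectin-1 binding, had the largest difference. It stood at 8.81, 8.95 and 8.88 in Ly6C- F4/80high cells of mice 1, 2 and 3, against 7.73, 7.85 and 7.74 in Ly6C+ F4/80low cells, and showed a 2.15-fold higher level, a difference of 1.11 (SE 0.08, limma adjusted p = 5.70e-06). The chain-extending enzyme gene B3gnt3 was higher by 1.02 (SE 0.11) and the branching enzyme gene Mgat4b by 0.71 (SE 0.08). Gcnt2, the gene called lower, differed by -0.29 (SE 0.07, limma adjusted p = 0.0102), a call lost without mouse 1 and without mouse 3. Mgat5, the branching enzyme best known for making galectin-3 ligands, was higher by 0.63 (SE 0.08) and is named after its values were seen.

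Genes that repair or clear broken endosomes, the membranes on which galectin-3 and galectin-8 gather, numbered 13. Of these 3 were higher, 2 lower and the other 8 short of a call (median 0.01). The share called was 38.5%, close to the 33.8% of all genes. Tsg101, of the ESCRT repair machinery, was higher by 0.57 (SE 0.08), whereas Trim16, a partner of galectin-3 in autophagy of damaged lysosomes, differed by -0.42 (SE 0.08). Trim16 stood at 6.66, 6.62 and 6.46 in Ly6C- F4/80high cells, against 7.01, 6.99 and 7.01 in Ly6C+ F4/80low cells, without overlap.

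The receptors and modifying enzymes of osteopontin were measured although Spp1 was not. Of 10 receptor subunits 3 were higher and 5 lower, 2 had no call, and the median was -0.03. The share called was 80.0%, against 33.8% of all genes. Itga9, the alpha 9 integrin subunit, stood at 8.06, 8.19 and 8.17 in Ly6C- F4/80high cells, against 6.91, 7.05 and 7.22 in Ly6C+ F4/80low cells. It was higher by 1.08 (SE 0.09, limma adjusted p = 2.06e-05), Itgb5 by 0.36 (SE 0.07), and Itga4, whose product binds osteopontin as well as VCAM-1, differed by -0.47 (SE 0.10). Of 10 genes whose products cut, crosslink, phosphorylate or dephosphorylate osteopontin, 3 were higher, 3 lower and 4 not called (median -0.11). The share called was 60.0%, again against 33.8%. Fam20c, the kinase of secreted proteins, was higher by 1.12 (SE 0.09), the elastase gene Mmp12 by 1.00 (SE 0.11) and Acp5, a phosphatase that acts on osteopontin in bone, by 0.64 (SE 0.10). F13a1, the crosslinking factor XIII subunit, differed by -0.37 (SE 0.08), a call lost without mouse 3.

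Among 13 genes that control or meet Gpnmb, 4 were higher, 1 lower and 8 not called (median 0.04). The share called was 38.5%, close to the 33.8% of all genes. Mitf, the factor known to drive Gpnmb in melanocytes and osteoclasts, stood at 9.71, 9.77 and 9.67 in Ly6C- F4/80high cells, against 9.0, 9.14 and 9.03 in Ly6C+ F4/80low cells. It was higher by 0.66 (SE 0.08, limma adjusted p = 0.000131). Its relatives were not called, with differences of -0.01 (SE 0.07) for Tfe3, 0.07 (SE 0.11) for Tfeb and -0.07 (SE 0.09) for Tfec, which are named after their values were seen. Rragc, a GTPase that holds these factors at the lysosome, was higher by 0.53 (SE 0.08). Flcn, the gene called lower, differed by -0.26 (SE 0.08, limma adjusted p = 0.0361), a call lost under 8 of the 20 alternatives. Adam10, a protease reported to shed Gpnmb, differed by 0.20 (SE 0.08, limma adjusted p = 0.0619), and is also named after its values were seen.

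The genes that sort, cut or receive progranulin numbered 16, and 9 of them were higher, 3 lower and 4 without a call (median 0.25). Calls thus numbered 12 of 16, against 33.8% of all genes, 19.5% higher and 14.3% lower. The median difference of all genes was -0.06. Sort1 encodes sortilin, the receptor that takes progranulin into the cell, and stood at 9.09, 9.10 and 9.14 in Ly6C- F4/80high cells of mice 1, 2 and 3, against 7.59, 7.73 and 7.36 in Ly6C+ F4/80low cells. Sort1 thus stood 2.92-fold higher, a difference of 1.55 (SE 0.10, limma adjusted p = 3.02e-06) and a larger measured difference than that of Grn itself. The Ly6C- F4/80high mean of Grn lay 0.99 under the highest value, where arrays may compress differences, and that of Sort1 4.36 under it. Mmp14, a membrane protease reported to cleave progranulin, was higher by 1.16 (SE 0.10), and Tmem106b, a lysosomal protein linked to progranulin disease, by 0.99 (SE 0.11). Slpi encodes an inhibitor that protects progranulin from elastase. It stood at 7.05, 7.30 and 6.85 in Ly6C- F4/80high cells, against 8.51, 8.53 and 8.62 in Ly6C+ F4/80low cells, 2.81-fold lower, by -1.49 (SE 0.11, limma adjusted p = 7.44e-06). Slpi is also made by neutrophils, of whose 10 markers 3 were called lower, S100a9, Ly6g and Cxcr2, and none higher. Ly6g and Cxcr2 are also among the 6 markers that lay under background in both subsets. Csf3r differed by -0.04 (SE 0.07) and S100a8 by 0.30 (SE 0.13), neither of them called. The part of such cells was not tested. Elane, the neutrophil elastase gene, lay under background in both subsets.

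Of 17 genes often listed beside Spp1 and Gpnmb in lipid-laden macrophages, 15 were higher, none lower and 2 not called (limma). Their median difference was 1.01. The share called was 88.2%, against 33.8% of all genes, and this list too was chosen with earlier results of these data known. Atp6v0d2, Lpl and Cd9 led, at 3.88 (SE 0.08), 2.60 (SE 0.10) and 1.89 (SE 0.09). Trem2, a lipid-sensing receptor named after its values were seen, was higher by 1.63 (SE 0.11), while its adaptor Tyrobp differed by 0.00 (SE 0.07). The difference of Gpnmb, at 0.89, thus lay below the median of that list. The list shares Ctsb and Ctsd with the progranulin list and Mmp12 with the osteopontin enzymes. Cd44, Itgb1 and Itga5 stand in both the galectin-binding and the osteopontin receptor lists, so the lower calls of Cd44 and Itga5 count in each.

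**Figure D3:**
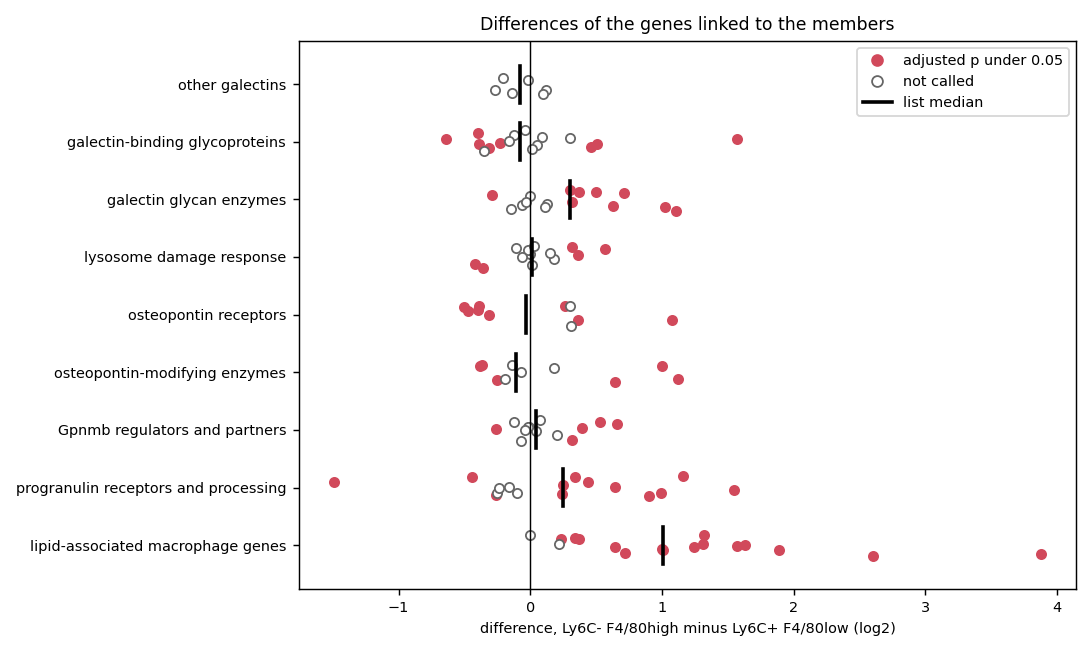
Difference of each gene of the 9 lists around the members between Ly6C- F4/80high and Ly6C+ F4/80low cells (horizontal axis, log2; each point is 1 gene, scattered vertically for legibility). Filled points had a limma adjusted p under 0.05, and vertical bars are list medians, which run from -0.11 for the osteopontin-modifying enzymes to 1.01 for the lipid-associated macrophage genes.

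The genes whose patterns over the 6 arrays were most like those of the members were taken by the root mean square distance between log2 profiles, each centred on its own mean, among 17136 genes. For Gpnmb these were Bnip3l, E2f1 and Gpx4 (distances 0.0367, 0.0375 and 0.038), with differences of 0.88, 0.89 and 0.88. For Grn they were Yif1b, Naxd and Hs1bp3 (0.0167, 0.0187 and 0.0211). Lgals1 was nearest to Brf2, Usp33 and D11Wsu47e (0.00608, 0.0173 and 0.0181), and Lgals3 to Ift140, Tk1 and Strn4 (0.00484, 0.00958 and 0.0147). Lgals8 was nearest to Igdcc3, Csrp2 and Zfp622 (0.0149, 0.0245 and 0.026), and Lgals9 to Unc93b1, Cmklr1 and M1ap (0.0213, 0.0235 and 0.0243). Among the members themselves the closest profiles were those of Lgals1 and Lgals3 (0.0683) and of Lgals1 and Grn (0.071), and the farthest those of Lgals8 and Gpnmb (0.591). A distance over 6 arrays from the same 3 mice mostly measures the difference between the subsets.

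**Figure D4:**
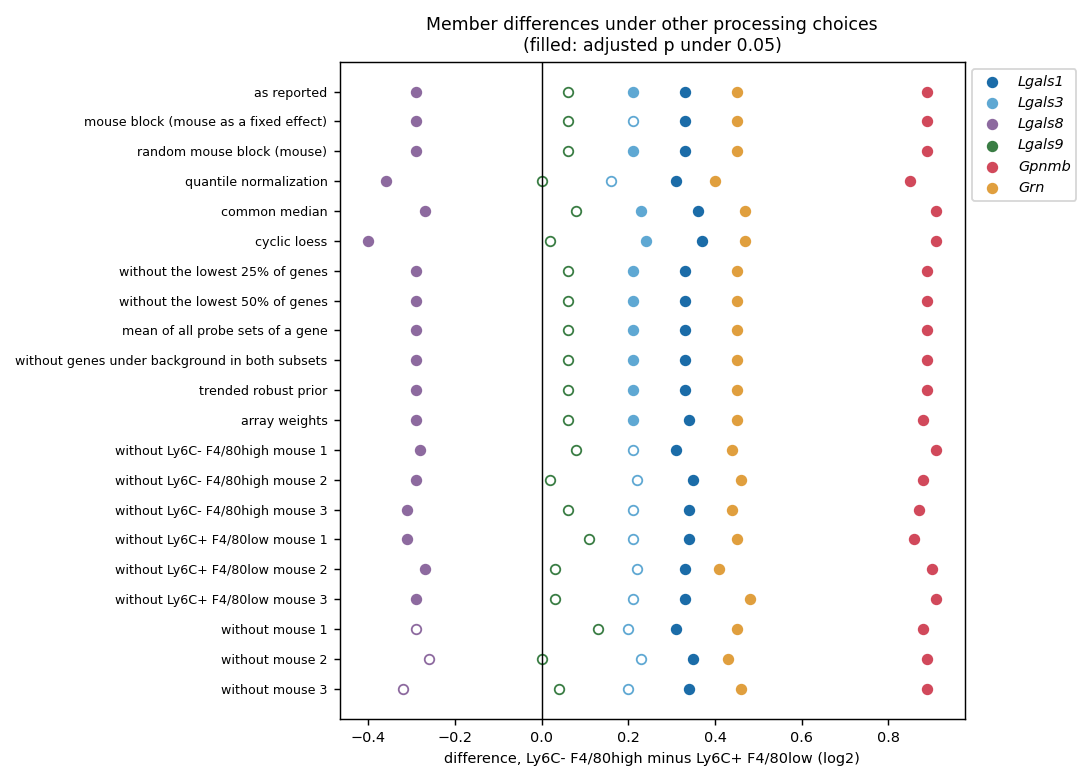
Differences of the 6 measured members (horizontal axis, log2, Ly6C- F4/80high minus Ly6C+ F4/80low) as reported and under 20 other processing choices, one per row. Filled symbols had a limma adjusted p under 0.05. Gpnmb, Grn and Lgals1 are filled in every row, Lgals8 is open without any one mouse, Lgals3 is open in 11 rows and Lgals9 in all.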

How the data were processed

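Biotin-labelled RNA of 6 sorted samples was measured on arrays, 1 per sample, with Affymetrix labelling, per the labels. The deposited values are log2 expression made by the authors with RMA, per the submitters' processing notes. No version or settings are stated in the notes, and the values (1.20 to 13.5) were read as log2. RMA compresses low signals, and the probe sets of Lgals1, Lgals3, Gpnmb and Grn lay within 1.0 of the highest value, where arrays may compress differences too.

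Of 35556 probe sets 21789 had 1 symbol, and each of the 19938 symbols was read from its brightest probe set. limma 3.58.1 in R 4.3.3 (lmFit, eBayes, two-sided) was fitted over all genes without a block. The code was also run on simulated data with independent noise on each array, which cannot examine the pairing by mouse. Each mouse gave both subsets, per the labels, so the mouse pairs the arrays. Paired deviations correlated at 0.03, -0.08 and 0.09. The number of arrays limits precision.

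The members and lists were chosen with earlier results of these data known. Named genes are the members, the sorting antigens, the remaining galectins, up to 3 called genes per direction of each list and the 3 nearest profiles. Of the list genes the text gives mostly those whose call held under all 20 alternatives, a choice made after seeing the data. Alternatives were both mouse blocks, other scalings, filters, probe set means, other priors, array weights and left-out arrays or mice. The background level and a filter at it were added after seeing the data. Sequences are RefSeq's.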

Additional observations from a re-analysis of the deposited data

How the results depend on the processing

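Gpnmb (0.85 to 0.91), Grn (0.40 to 0.48) and Lgals1 (0.31 to 0.37) kept direction and call under all 20 alternatives, and Lgals9 was never called (0.00 to 0.13). With the mouse as a fixed replicate block, Lgals3 kept its difference of 0.21 but not its call, which it kept with a random block, and after quantile normalization it was 0.16; the cause was not tested. Leaving out arrays or mice gave 0.20 to 0.23 for Lgals3, never called, and -0.32 to -0.26 for Lgals8, called except without a whole mouse, when fewer samples were fitted. Members called numbered 5, 4 with the block and 3 to 4 with arrays or mice left out.

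Over all genes, 6748 were called, 6164 with the block and 3998 to 6887 with samples left out, the fewest without mouse 3. Among the remaining galectins 1 was called with the block, after quantile normalization, without the lowest 25% or 50% of genes, with the trended robust prior and without genes under background, and 0 to 1 with samples left out. With samples left out, calls numbered 5 to 9 for the galectin-binding, 6 to 9 for the glycan enzyme and 2 to 5 for the lysosome damage list. They numbered 4 to 9 for the osteopontin receptor, 3 to 6 for the osteopontin-modifying and 2 to 4 for the Gpnmb list. For the progranulin list the range was 7 to 13, and for the lipid-associated macrophage list 12 to 15. The blocked fit ended the calls of Itgam, Tnfrsf9, Mmp3 and Plin2 in the lists and added Lgals7 and Itgb6. Each member had 1 probe set, so no other probe set could be compared. Leaving out 1 array leaves 2 in a subset.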
